A study of Mus musculus with 6 samples.

Results

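The genes described here are 9 members of the CCN family and of the transcriptional program of YAP, namely *Cyr61*, *Ctgf*, *Nov*, *Wisp1*, *Wisp2*, *Ankrd1*, *Amotl2*, *Amotl1* and *Axl*. They were chosen by name among the 36759 genes on a mouse expression array, as every non-control spot whose annotation names one of them. This gave 10 spots of 59305, each for a different probe, with a pair of probes for *Wisp1* and 1 probe for each of the others. *Cyr61*, *Ctgf*, *Nov*, *Wisp1* and *Wisp2* are the older symbols of *Ccn1* to *Ccn5*, and the older symbols are kept here because the array uses them. The genes were measured in 1G11 cells, a mouse microvascular endothelial line of strain C57BL/6NCrLBR. The control, 1G11-mock, was mock transfected and does not overexpress SOD3, and 1G11-SOD3 was modified to overexpress SOD3, the secreted superoxide dismutase. Both lines were exposed for 6 h to conditioned medium of the murine mammary cancer line N202.1A, so no array shows the cells without that medium. There were 3 biological replicates per line, and RNA of each was labeled with Cy3 and hybridized to a single-color Agilent array. The comparison asks how the CCN and YAP target genes differ between the lines in this medium. Each group is 1 transfected line, so a difference between the groups cannot be told apart from a difference between these lines that has another origin than SOD3.

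CCN proteins are secreted modular proteins that sit in the extracellular matrix and act on cells through integrins, proteoglycans and LRP receptors. *Cyr61* and *Ctgf* are the targets most used to read the activity of YAP and TAZ, coactivators that carry no DNA binding domain and act with the TEAD transcription factors. The Hippo kinases keep YAP and TAZ out of the nucleus, and cell shape, tension, density and serum factors act on them. In endothelial cells YAP and TAZ take part in sprouting and in the response to flow, and both *Cyr61* and *Ctgf* are known in vessel growth.

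*Wisp2* rose and *Ankrd1* fell in 1G11-SOD3 cells. *Wisp2* was 12.5-fold higher (95% interval 8.21 to 19.0), and *Ankrd1* was 2.38-fold lower (95% interval 1.52 to 3.72), a call near the threshold that was lost in 5 of the 6 fits with 1 array left out. The other 7 genes did not pass the test, *Cyr61* and *Ctgf* among them. On both of those, the 1G11-mock arrays differed more from each other than the group means did. A gene was called when its brightest probe changed by more than 2-fold with an adjusted p under 0.05 in limma, with Benjamini-Hochberg adjustment over all 55681 probes. By this rule 1 of 9 member genes was called higher, against 2.14% of all genes, and 1 of 9 was called lower, against 1.28% of all genes. The 9 genes were chosen with earlier results of these data known, so these shares describe the members and are not a test. The median log2 fold change was -0.22 over the 9 genes and -0.04 over all genes. In RNA of whole cultures, fewer cells of a type and less RNA per cell cannot be told apart.

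Sequence is shown first for the promoters, because *Cyr61*, *Ankrd1* and *Amotl2* share a TEAD motif near their start sites. Of the 9 genes, 5 matched a promoter in RefSeq (GRCm38.p6) by their current symbol, and the window runs from 250 bases before to 50 bases after the start. The letters CATTCC or their complement GGAATG, the core of the TEAD motif, were found in 4 of these 5 promoters and in 14.7% of all 32851 promoters of the table. Members were chosen partly as targets of YAP, which acts with TEAD factors, so these shares are a description and not a test. The promoters below run 5′ to 3′ in the direction of the gene, with the TEAD letters in capitals. *Cyr61* lies at chr3:145649936-145650235 (minus strand), *Ankrd1* at chr19:36119795-36120094 (minus strand) and *Amotl2* at chr9:102717554-102717853 (plus strand).
Cyr61: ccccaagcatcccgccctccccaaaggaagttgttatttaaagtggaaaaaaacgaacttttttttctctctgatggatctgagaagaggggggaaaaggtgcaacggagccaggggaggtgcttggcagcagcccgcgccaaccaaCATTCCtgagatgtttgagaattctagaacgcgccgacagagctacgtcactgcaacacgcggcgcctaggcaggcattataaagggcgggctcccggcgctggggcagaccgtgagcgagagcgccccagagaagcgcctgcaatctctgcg
Ankrd1: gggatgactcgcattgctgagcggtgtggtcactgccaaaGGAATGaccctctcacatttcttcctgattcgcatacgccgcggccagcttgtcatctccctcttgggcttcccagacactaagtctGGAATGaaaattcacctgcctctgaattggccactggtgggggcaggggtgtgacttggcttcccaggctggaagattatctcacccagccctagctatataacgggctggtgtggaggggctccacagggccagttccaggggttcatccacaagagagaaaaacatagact
Amotl2: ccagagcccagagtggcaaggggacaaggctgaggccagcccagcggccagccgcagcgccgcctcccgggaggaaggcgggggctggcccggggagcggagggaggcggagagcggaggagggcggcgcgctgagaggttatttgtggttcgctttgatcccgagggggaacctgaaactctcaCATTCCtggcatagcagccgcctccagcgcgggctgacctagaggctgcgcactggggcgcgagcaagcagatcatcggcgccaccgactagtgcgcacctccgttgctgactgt

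In *Cyr61* the motif began 103 bases before the start site, and in *Amotl2* 65 bases before it. *Ankrd1* held the complement at 2 places, which began 210 and 123 bases before the start. *Axl* held it once, 233 bases before the start (chr7:25788684-25788983, minus strand), and the promoter of *Amotl1* (chr9:14614951-14615250, minus strand) held none. The AP-1 motif TGANTCA and the CArG box bound by SRF were searched on both strands as well. They were found in 0 of the 5 promoters, against 7.81% and 1.63% of all promoters. A match gives letters only, and no binding was measured in these samples.

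The probes for the 2 called genes are given by their first 30 of 60 bases, since these are the sequences that the arrays read.
Wisp2 probe: gtatttgtaaaaatacacatctcttaaatg
Ankrd1 probe: cccctttgtgttctcacttgcataaagcta

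The array annotation, whose build is not given in the files, places the *Wisp2* probe on chromosome 2 from 163658717 to 163658776 and the *Ankrd1* probe on chromosome 19 from 36186809 to 36186868.

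Some facts of the whole experiment bear on each value. Of the non-control spots, 36.0%, 34.4% and 34.2% were well above background on 1G11-mock replicates 1, 2 and 3. On the 1G11-SOD3 arrays it was 38.4%, 38.5% and 43.8%, more than on any 1G11-mock array, and no spot was saturated. *Sod3* was higher on all 1G11-SOD3 arrays (log2 intensity 16.37, 16.30 and 16.26) than on the 1G11-mock arrays (13.61, 12.66 and 9.86), a log2 fold change of 4.27 ± 0.703 (SE, limma adjusted p = 0.00786). Without 1G11-SOD3 replicate 3 its adjusted p was 0.0511. Its probe lies in the middle of the array, a central block of rows and columns that holds 6606 of the spots, where the local deviation from the mean of the 6 arrays had a median of -0.06, -0.30 and -1.63 on the 1G11-mock and 0.77, 0.55 and 0.74 on the 1G11-SOD3 arrays (log2 scale). With each array corrected for the place of its spots, called here the position adjustment, the log2 fold change of *Sod3* was 2.20 (limma adjusted p = 0.00834). None of the 10 member spots lies in the middle, and position-adjusted values are given where they alter a result. The slide held the 1G11-mock arrays in its row 2 and the 1G11-SOD3 arrays in its row 1, so slide row and cell line cannot be told apart. The smallest p of an exact permutation test of 3 against 3 arrays is 0.1, so p-values come from limma, which shares the spread across probes.

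**Figure D1:**
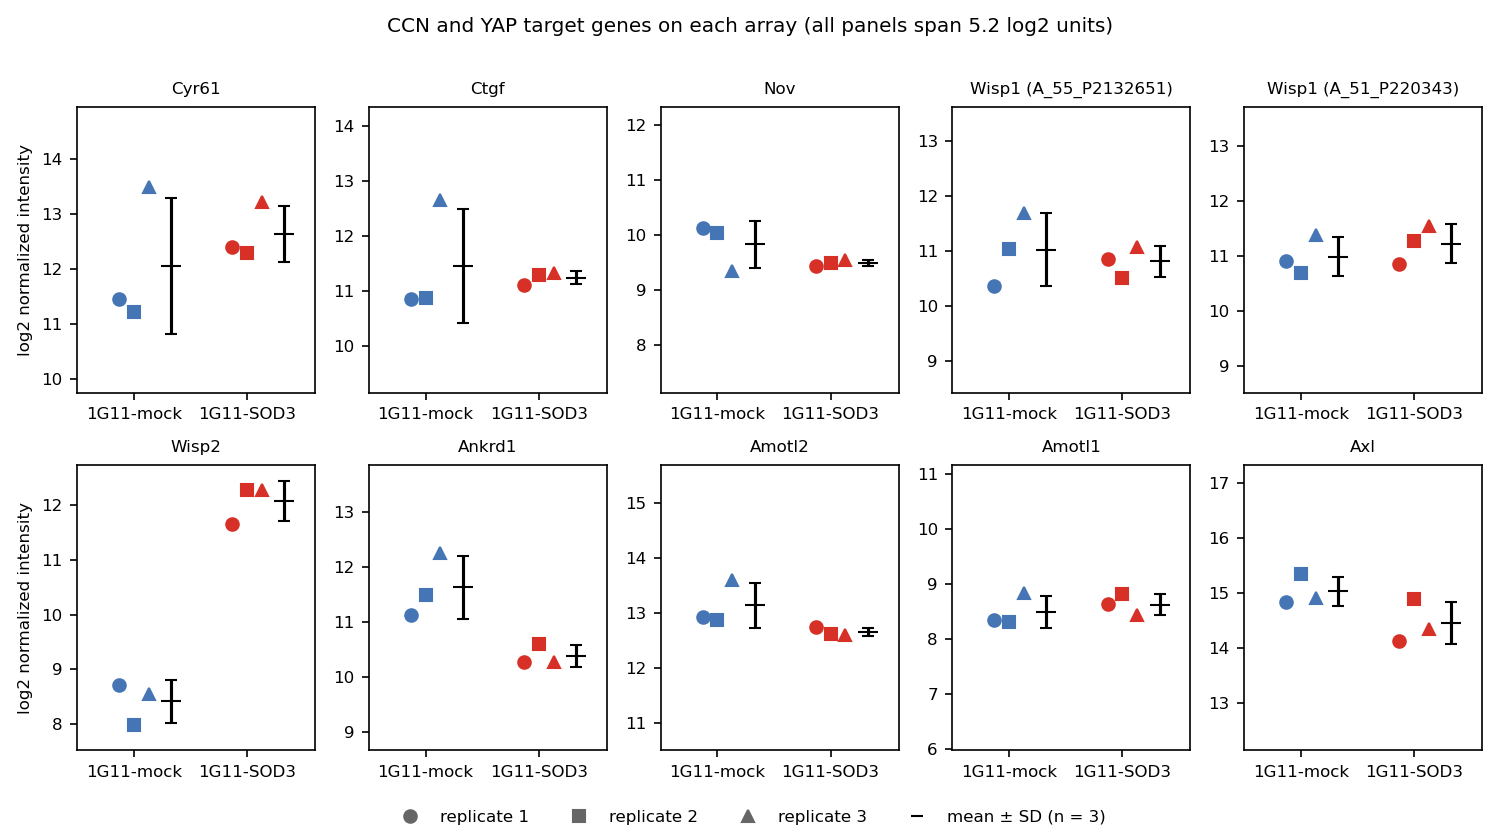
Log2 normalized intensity of each member probe on the 3 1G11-mock (blue) and 3 1G11-SOD3 (red) arrays, with the mean and SD of each line in black and symbols for replicates 1 to 3. Levels of different probes are not comparable, so all panels share a span but not a range. In these values, without the position adjustment, *Wisp2* is apart upward and *Ankrd1* and *Amotl2* downward. For *Cyr61* and *Ctgf* the highest 1G11-mock array is replicate 3.

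*Wisp2* (*Ccn5*) encodes the CCN protein that lacks the C-terminal domain of the others, and it is known for growth restraint in vascular smooth muscle. In 1G11-mock replicates 1, 2 and 3 its log2 normalized intensity was 8.72, 7.98 and 8.55, and in 1G11-SOD3 replicates 1, 2 and 3 it was 11.64, 12.27 and 12.27. The lines did not overlap, and every 1G11-SOD3 array was higher than every 1G11-mock array by more than the range within either line. The means were 8.42 ± 0.389 and 12.06 ± 0.362 (SD, n = 3 arrays each). The log2 fold change was 3.64 ± 0.276 (SE, limma adjusted p = 0.000125). In 1G11-mock cells the signal stood well above background in 2 of 3 replicates, so the lower level is close to the detection limit. *Wisp2* was called in 14 of 14 other settings, in which its log2 fold change ran from 3.17 to 4.79. It was also called with each of the 6 arrays left out in turn, at 3.47 to 3.82. With the position adjustment the value was 3.97 (limma adjusted p = 0.000439), and 1 of 9 member genes was then called higher, against 1.37% of all genes.

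Genes known from fibroblasts and mural cells moved with *Wisp2*. Of 12 such markers, 7 were called higher, none lower, and 7 were called higher with the position adjustment too. Their median log2 fold change was 1.35, and their summed linear intensity was 76587 to 76945 on the 1G11-mock and 144128 to 373286 on the 1G11-SOD3 arrays. *Col1a1*, a chain of fibrillar collagen, was 8.55-fold higher, and *Pdgfrb*, a mural cell receptor, was 5.24-fold higher (limma adjusted p = 0.00152 and 0.00036). *Acta2*, *Tagln*, *Col3a1*, *Col1a2* and *Lum* were the others. *Dcn* and *Pdgfra* were well above background on at least 3 arrays and were not called. *Rgs5* and *Des*, which mark pericytes and muscle, stood well above background on no array, and *Cspg4* did so on 1 array. The part of such cells, or of such a state, in the level of *Wisp2* was not tested.

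*Cyr61* (*Ccn1*), a matricellular protein that binds integrins and promotes vessel growth, gave the widest scatter among the members. Its log2 intensity was 11.45, 11.21 and 13.48 on the 1G11-mock arrays and 12.40, 12.28 and 13.22 on the 1G11-SOD3 arrays. The highest array of all was 1G11-mock replicate 3, the other 1G11-mock arrays were the lowest, and the lines overlapped. The log2 fold change was 0.59 ± 0.507 (SE), with a 95% interval from -0.53 to 1.70 (limma adjusted p = 0.663). Without 1G11-mock replicate 3 it was 1.31 (limma adjusted p = 0.0722), and with any other array left out it lay between 0.17 and 0.76, so the value moved most without that array. Within replicate numbers, *Cyr61* was higher in 1G11-SOD3 cells for numbers 1 and 2 (by 0.95 and 1.06 on the log2 scale) and lower for number 3 (by -0.26). With the replicate number as a block, the SE of its log2 fold change was 0.285 (limma adjusted p = 0.343).

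*Ctgf* (*Ccn2*), the second classical YAP target and a cofactor of TGF-β in matrix production, had the same outlying array. It read 10.85, 10.88 and 12.66 on the 1G11-mock arrays and 11.11, 11.30 and 11.34 on the 1G11-SOD3 arrays (log2 intensity). All 1G11-SOD3 arrays lay between 1G11-mock replicates 1 and 2 on one side and replicate 3 on the other. The log2 fold change was -0.22 ± 0.414 (SE), with a 95% interval from -1.13 to 0.69 (limma adjusted p = 0.864). Without 1G11-mock replicate 3 the sign turned, to 0.38 (limma adjusted p = 0.491).

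*Nov* (*Ccn3*), which often acts against *Ctgf*, did not pass the test. It read 10.13, 10.03 and 9.35 on the 1G11-mock arrays and 9.44, 9.50 and 9.56 on the 1G11-SOD3 arrays (log2 intensity). On this probe 1G11-mock replicate 3 was the lowest array, opposite to *Cyr61* and *Ctgf*, and the 1G11-SOD3 arrays lay within 0.12 of each other. The log2 fold change was -0.34 ± 0.254 (SE, limma adjusted p = 0.604).

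*Wisp1* (*Ccn4*), a target of Wnt and β-catenin signaling, was read by a pair of probes that did not give the same sign. The brighter probe, A_51_P220343, read 10.91, 10.69 and 11.38 on the 1G11-mock and 10.85, 11.29 and 11.55 on the 1G11-SOD3 arrays, with a log2 fold change of 0.24 ± 0.269 (SE, limma adjusted p = 0.752). The second, A_55_P2132651, read 10.37, 11.03 and 11.68 on the 1G11-mock and 10.85, 10.51 and 11.08 on the 1G11-SOD3 arrays, with -0.22 ± 0.322 (SE, limma adjusted p = 0.820). The lines overlapped on both probes. With the position adjustment the values were 0.60 and 0.57, and neither passed the test (limma adjusted p = 0.157 and 0.245). The lines then overlapped on A_55_P2132651 only. *Wisp3*, the sixth CCN gene, stood well above background on no array.

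*Ankrd1* encodes an ankyrin repeat protein of the nucleus and sarcomere and is a direct YAP target in many cells. Its log2 intensity was 11.13, 11.49 and 12.26 on the 1G11-mock arrays and 10.28, 10.60 and 10.26 on the 1G11-SOD3 arrays. Every 1G11-SOD3 array was lower than every 1G11-mock array. The means were 11.63 ± 0.577 and 10.38 ± 0.192 (SD, n = 3 arrays each), and the log2 fold change was -1.25 ± 0.294 (SE, limma adjusted p = 0.0454). The call was close to the threshold and was made in 8 of 14 other settings, with limma adjusted p from 0.0266 to 0.0794. Of the 6 fits with 1 array left out, 1 called *Ankrd1*, the one without 1G11-mock replicate 1. Without 1G11-mock replicate 3, its highest array, the log2 fold change was -0.93 (limma adjusted p = 0.106), and the direction was the same in all of these fits. With the position adjustment the log2 fold change was -1.27 (limma adjusted p = 0.0777), and 0 of 9 member genes were called lower, against 2.83% of all genes.

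*Amotl2* and *Amotl1* encode angiomotin-like proteins, which hold YAP at cell junctions, and *Amotl2* is itself a YAP target that feeds back on it. *Amotl2* read 12.93, 12.88 and 13.61 on the 1G11-mock arrays and 12.74, 12.62 and 12.60 on the 1G11-SOD3 arrays (log2 intensity). The lines did not overlap, but the gap between the nearest arrays was small. The log2 fold change of -0.49 ± 0.251 (SE, limma adjusted p = 0.415) did not pass the test. With the position adjustment it was -0.40 (limma adjusted p = 0.418). The lines then overlapped, with 1G11-SOD3 replicate 3 (12.86) above 1G11-mock replicate 2 (12.80). *Amotl1* read 8.33, 8.31 and 8.83 on the 1G11-mock and 8.63, 8.81 and 8.42 on the 1G11-SOD3 arrays, with 0.13 ± 0.240 (SE, limma adjusted p = 0.856). Its lines overlapped without the position adjustment. With that adjustment the log2 fold change of *Amotl1* was 0.49 and did not pass the test (limma adjusted p = 0.208). Every 1G11-SOD3 array (8.79, 8.91 and 8.74) then lay above every 1G11-mock array (8.48, 8.32 and 8.17). *Amot*, the angiomotin that gave the family its name, had a log2 fold change of 0.30 ± 0.246 (SE, limma adjusted p = 0.640).

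*Axl* encodes a receptor tyrosine kinase of the TAM family and is a YAP target in cancer cells. Its log2 intensity was 14.84, 15.34 and 14.90 on the 1G11-mock arrays and 14.13, 14.89 and 14.34 on the 1G11-SOD3 arrays. Replicate 2 of 1G11-SOD3 lay above replicate 1 of 1G11-mock, so the lines overlapped. The log2 fold change was -0.57 ± 0.263 (SE, limma adjusted p = 0.352), and with the position adjustment it was -0.16 (limma adjusted p = 0.742).

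Counted by separation alone and without the position adjustment, 1 of 9 genes (*Wisp2*) had all 1G11-SOD3 arrays above all 1G11-mock arrays, against 10.6% of all genes. All of them lay below in 2 of 9 (*Ankrd1* and *Amotl2*), against 11.2%. The position adjustment altered these counts. *Wisp2* and *Ankrd1* stayed apart, *Amotl2* overlapped, and *Amotl1* and the brighter *Wisp1* probe were apart upward. The shares over all genes were not counted with that adjustment. The plot of the difference for each probe shows how far the log2 fold changes moved with the setting.

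**Figure D2:**
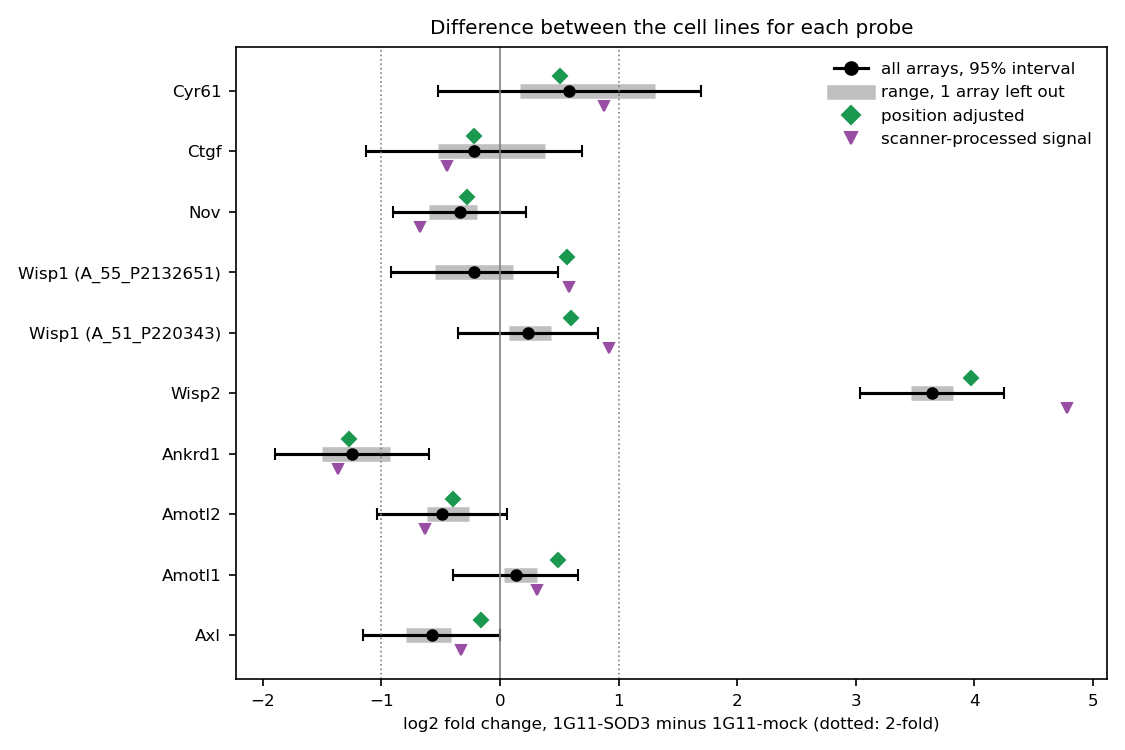
Log2 fold change (1G11-SOD3 minus 1G11-mock) of each member probe with its 95% interval (black), the range when 1 array was left out (gray bar), the position-adjusted value (green) and the value from the scanner-processed signal scaled to the 75th percentile (purple). The interval of *Wisp2* lies from 3.04 to 4.25 and that of *Ankrd1* from -1.89 to -0.60, whereas the other 8 intervals include 0.

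The scatter of 1G11-mock replicate 3 was followed across the members. Of the 9 genes, 6 were highest in that replicate among the 1G11-mock arrays, counting *Wisp1* by its brighter probe, as were 48.8% of 15032 probes outside the middle and well above background on all arrays. After the position adjustment it was 5 of 9 genes against 29.9% of these probes. *Wisp2* is among the 9 genes but not among these probes, and it was not highest in that replicate in either setting. The difference between 1G11-mock replicate 3 and the mean of replicates 1 and 2 was 2.14 on the log2 scale for *Cyr61* and 1.79 for *Ctgf*. Among the same 15032 probes this difference had a median of 0.14 (quartiles -0.21 and 0.45), and 0.0399% of them were as high as *Cyr61* and 0.133% as high as *Ctgf*. *Ankrd1* had a difference of 0.95 and *Amotl2* one of 0.70, values that 4.76% and 11.8% of probes reached. The position-adjusted differences were 2.05 for *Cyr61*, 1.33 for *Ctgf*, 1.26 for *Ankrd1* and 0.78 for *Amotl2*, which 0.0333%, 0.166%, 0.220% and 2.34% of probes reached, and *Amotl1* went from 0.51 to -0.22. *Nov* (-0.73) and *Axl* (-0.19) were lower in that replicate. These percentages describe 1 array, and no test can be made of it.

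**Figure D3:**
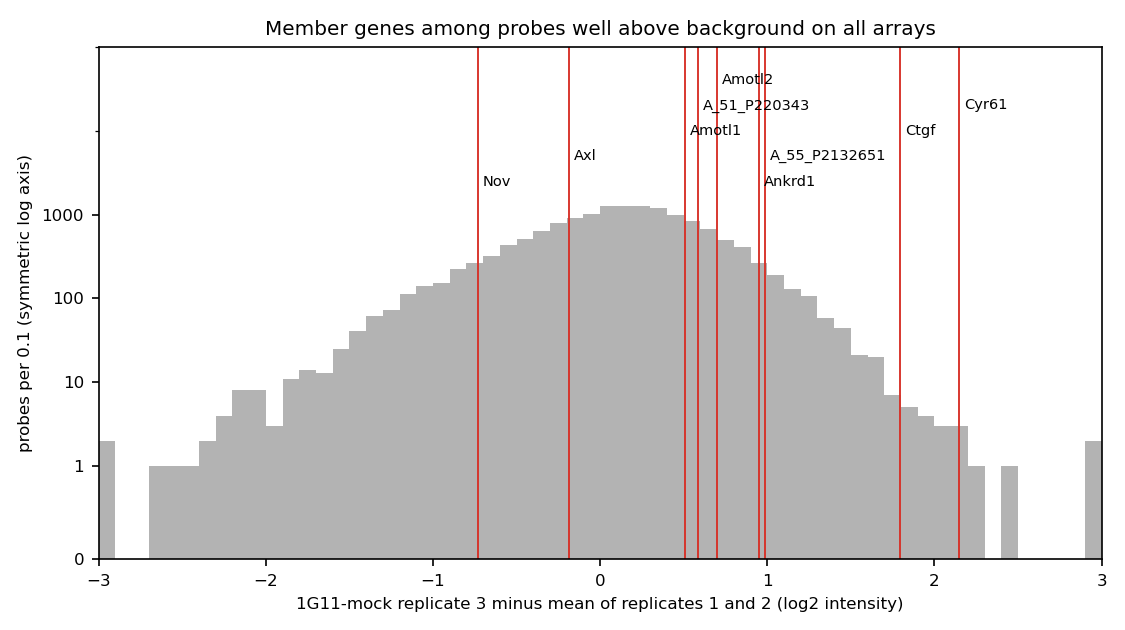
Number of probes (gray, symmetric log axis) by the log2 difference between 1G11-mock replicate 3 and the mean of replicates 1 and 2, over 15032 probes, with the 9 member probes that were well above background on all arrays as red lines. A_51_P220343 and A_55_P2132651 are the *Wisp1* probes, *Wisp2* is not drawn, and the end bars also hold values beyond the axis; *Cyr61* (2.14) and *Ctgf* (1.79) lie in the upper tail.

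The range within each line was compared in the same way. In 7 of the 9 genes the 1G11-mock range was wider than the 1G11-SOD3 range, as it was for 51.3% of the 15032 probes, and with the position adjustment in 9 of 9 genes against 59.8%. Both counts include *Wisp2* (0.74 in 1G11-mock and 0.63 in 1G11-SOD3 without the adjustment). Its probe is not among the 15032, because it was not well above background on all arrays. For *Cyr61* the ranges were 2.26 and 0.94 on the log2 scale and for *Ctgf* 1.81 and 0.23, whereas the medians over the 15032 probes were 0.55 and 0.53. A range as wide as that of *Cyr61* in 1G11-mock was found for 0.239% of probes. *Axl* had the wider range in 1G11-SOD3 (0.76 against 0.49), and for the brighter *Wisp1* probe both ranges were 0.70 after rounding (0.698 in 1G11-SOD3 and 0.695 in 1G11-mock).

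The genes that carry the signal to these targets did not pass the test. YAP (*Yap1*) had a log2 fold change of -0.15 ± 0.239 and TAZ (*Wwtr1*) one of -0.02 ± 0.310 (SE, limma adjusted p = 0.830 and 0.985). Of the TEAD factors, *Tead1* had 0.75, *Tead2* -0.58, *Tead3* 0.40 and *Tead4* 0.42, and none passed the test (limma adjusted p = 0.218, 0.333, 0.512 and 0.516). Their position-adjusted values were 0.04, -0.10, 0.88 and 0.59, again with no call. In the group of 10 YAP, TAZ, TEAD and cofactor genes 0 were called in limma in either direction (3 at an unadjusted p under 0.05), and the median log2 fold change was 0.06. The 3 were *Tead1*, *Tead2* and *Vgll4*, none of which stayed under 0.05 with the position adjustment, and *Vgll4*, whose probe lies in the middle, went from 0.97 to -0.46. These are transcript levels, and YAP and TAZ are controlled mainly by where the protein is in the cell, which the arrays do not measure.

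Among the 20 Hippo kinases, scaffolds and upstream regulators 1 was called higher and 0 lower, with a median log2 fold change of -0.11. The called gene was *Fat4*, an atypical cadherin that acts upstream of the pathway in some tissues. It was not well above background on any 1G11-mock array and, without the position adjustment, was at least 3.65-fold higher in 1G11-SOD3 cells, the dim arrays being set to their lowest signal well above background (limma adjusted p = 0.000692). With the position adjustment *Fat4* was called too (limma adjusted p = 0.00648), and the bound was lower, at least 2.92-fold.

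Of 17 other genes known as YAP and TAZ targets, 1 was called higher and 0 lower. Their median log2 fold change was 0.02, close to that of all genes. With the position adjustment the median was 0.29, against 0.07 over all genes, and 0 were called in either direction. The gene called without that adjustment was *Ccdc80*, a secreted matrix protein. It read 14.74, 14.55 and 14.30 on the 1G11-mock and 15.40, 15.76 and 16.10 on the 1G11-SOD3 arrays. Its log2 fold change was 1.22 ± 0.252 (SE, limma adjusted p = 0.0248). The call was lost without 1G11-mock replicate 2 or 3 or 1G11-SOD3 replicate 2 or 3, and with the position adjustment (0.80, limma adjusted p = 0.104).

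Receptors of the CCN proteins gave 1 gene higher and 1 lower of 11, with a median of -0.14. *Lrp1*, the endocytic receptor that binds CTGF, fell by 1.13 on the log2 scale, from 15.94, 16.20 and 15.80 on the 1G11-mock to 15.05, 14.51 and 15.01 on the 1G11-SOD3 arrays (SE 0.241, limma adjusted p = 0.0298). It was called in 1 of 6 fits with an array left out, the one without 1G11-mock replicate 3, and its value was -1.16 with the position adjustment (limma adjusted p = 0.0587). *Itgb3*, a subunit of the αvβ3 integrin that binds CYR61 and CTGF, was called higher (1.36 ± 0.289, SE, limma adjusted p = 0.0288), but its probe lies in the middle of the array. With the position adjustment it was 0.61 and did not pass the test (limma adjusted p = 0.207), and it was called in 1 of 6 fits with an array left out, the one without 1G11-mock replicate 1.

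Beside *Axl*, the TAM receptors *Tyro3* and *Mertk* did not pass the test (0.48 each on the log2 scale, limma adjusted p = 0.621 and 0.548), and *Mertk* was well above background on 1 array. Of the 4 TAM genes, 1 was called higher and 0 lower. This was *Gas6*, the ligand of AXL, at least 2.46-fold higher in 1G11-SOD3 cells without the position adjustment and not well above background on any 1G11-mock array (limma adjusted p = 0.00905). Its probe lies in the middle of the array, its position-adjusted value had the other sign (-0.51, limma adjusted p = 0.571), and without 1G11-mock replicate 2 the adjusted p was 0.0532. In all, 5 of the 62 other genes of the pathway were called, 4 higher and 1 lower, against 2.14% and 1.28% of all genes. The same shares stand beside the counts of each single list in this report. With the replicate number as a block in limma, 5 of the 62 were called higher and 3 lower. The additional genes were *Lrp6* (higher, its probe in the middle), *Foxf2* and *Tjp1* (both lower). With the position adjustment 1 was called higher and 0 lower, against 1.37% and 2.83% of all genes.

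**Figure D4:**
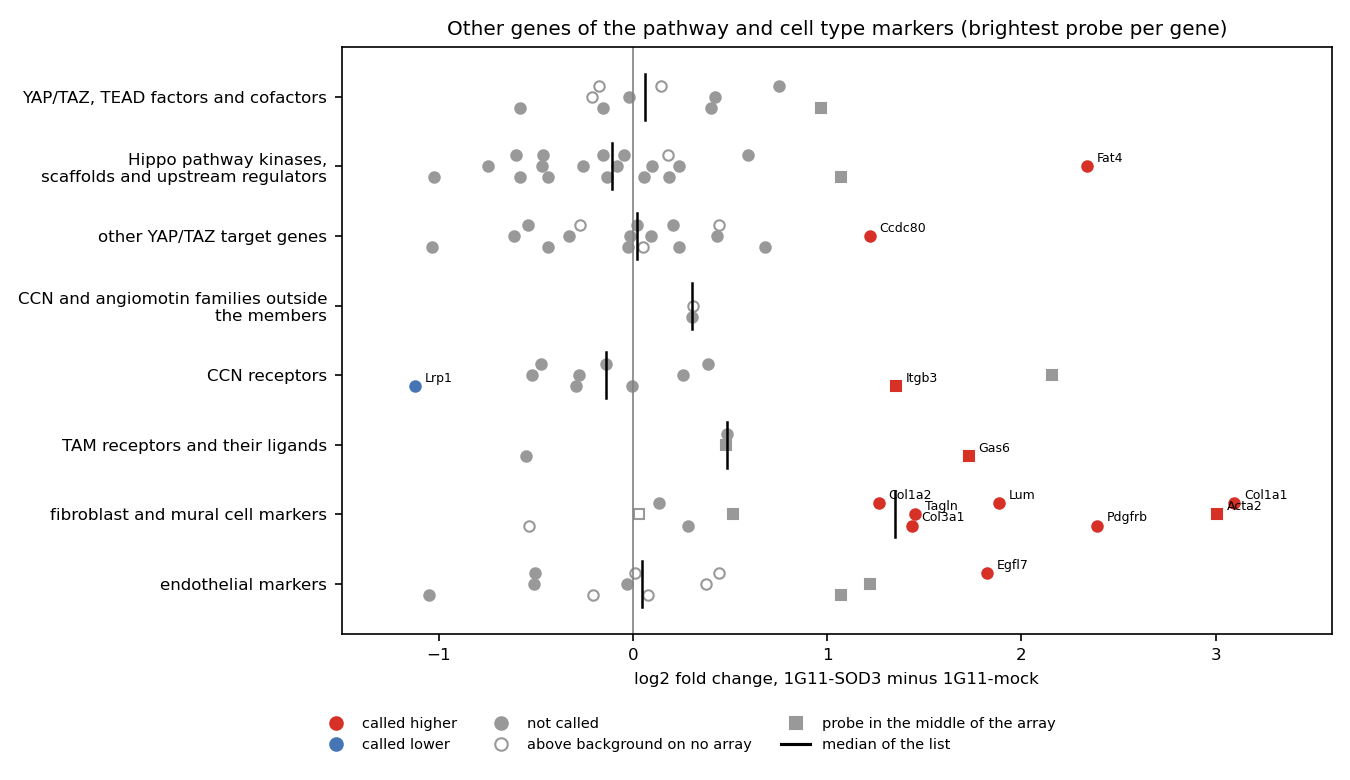
Log2 fold change (1G11-SOD3 minus 1G11-mock) of the other pathway genes and of the fibroblast, mural and endothelial markers, 1 point per gene by its brightest probe, with called genes in color and named and the list median as a black bar. Most pathway genes lie near 0, 3 of the 5 called ones are outside the middle of the array (circles), and 7 of 12 fibroblast and mural markers are called higher.

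The label of the cells was checked against marker genes. Of 12 endothelial markers 6 were well above background on at least 3 of the 6 arrays, and 5 were so on no array (*Cdh5*, *Tek*, *Tie1*, *Erg* and *Emcn*). *Cdh5* encodes VE-cadherin, a defining endothelial protein. The paper states that 1G11 cells were regularly stained for VE-cadherin to check their endothelial origin, whereas the arrays read RNA. *Pecam1* was well above background on 2 of 3 arrays of each line (log2 fold change -0.51, limma adjusted p = 0.447), and 1 of the 12 (*Egfl7*) was called higher. *Egfl7* had a log2 fold change of 1.82 (limma adjusted p = 0.0175) and of 0.89 with the position adjustment (limma adjusted p = 0.112), and it was called in 2 of 6 fits with an array left out, those without 1G11-mock replicate 1 or 1G11-SOD3 replicate 3. With the replicate number as a block 3 of the 12 were called higher, *Flt1* and *Esam* in addition (limma adjusted p = 0.0237 and 0.0464), whose probes lie in the middle and whose position-adjusted log2 fold changes were 0.12 and -0.68. Without the position adjustment, the summed linear intensity of the endothelial markers was 21664 to 29266 on the 1G11-mock and 16349 to 20336 on the 1G11-SOD3 arrays. Gene by gene the list was mixed, with 7 positive and 5 negative log2 fold changes. Its median was 0.04, and -0.16 with the position adjustment. Of 10 epithelial markers 1 was called higher, *Krt14*, with a log2 fold change of 4.82 (limma adjusted p = 7.23e-05). Its probe lies in the middle, and with the position adjustment it was called too, at 1.63 (limma adjusted p = 0.0091). Without the position adjustment, the summed linear intensity of the epithelial markers was 2103 to 2605 on the 1G11-mock and 7824 to 13997 on the 1G11-SOD3 arrays. The list did not rise as a whole. Of the 10, 2 were well above background on at least 3 arrays, 3 had a positive and 7 a negative log2 fold change. Their median was -0.18, and 0.25 with the position adjustment. Of 8 leukocyte markers 0 were called in limma, with 0 at an unadjusted p under 0.05. The epithelial marker *Epcam* and the leukocyte marker *Ptprc* stood well above background on no array.

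Profiles most like those of the called genes were sought among 14297 genes measured outside the middle, after each was centered on its mean over the 6 arrays. Nearest to *Wisp2* were *Trabd2b*, *Sema5a* and *Slc16a9*, at a root-mean-square difference of 0.438, 0.454 and 0.497 on the log2 scale. Nearest to *Ankrd1* were *Tmem61*, *Plekha2* and *Kcnn4*, at 0.128, 0.132 and 0.139. The 6 arrays hold 2 lines, so genes that were apart by the same amount in the same direction come out as alike by this measure.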

How the data were processed

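RNA of 3 1G11-mock and 3 1G11-SOD3 cultures was read on 1 slide of single-color Agilent arrays. The authors deposited scanner output (Feature Extraction 10.7.3.1, per the file headers) with the intensity of each spot and its background, not normalized, and the flag columns used here for outliers and signal above background. They also deposited a table of log2 values, corrected with normexp and quantile normalized, used here as an alternative; the submitters' processing notes name limma. Mean spot intensities were corrected with normexp (offset of 50), taken to log2 and quantile normalized without control spots (limma 3.58.1, R 4.3.3). Outlier spots were left out, spots of 1 probe were averaged, and the brightest probe stood for a gene. The lines were compared with lmFit and eBayes over all probes. The position adjustment subtracted from each array the local median deviation over row and column, and for 199 probes printed 10 times it lowered the median SD of the difference between the lines over the copies from 0.302 to 0.121.

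The 9 members and all gene lists were chosen with earlier results of these data known. Named are every member probe, the called genes of the pathway lists, *Yap1*, *Wwtr1*, the TEAD genes, family members, defining markers, *Sod3*, and the 3 genes most like each called member. *Foxf2*, *Tjp1*, *Lrp6*, *Vgll4* and the other markers were named after their values were seen. Same-numbered arrays deviated together (correlation 0.165, 0.103 and 0.157 over 16279 probes, each array best with its own number). The main fit had no term for the replicate number, so its SEs, intervals and p-values leave this pairing out. The pairing was used only in the alternative fit with the replicate number as a block. The number of arrays limits the precision. The procedure was tested on simulated data. Motifs and figures used pandas 2.3.3, numpy 2.4.6 and matplotlib 3.10.9 (Python 3.11.15).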

Additional observations from a re-analysis of the deposited data

How the results depend on the processing

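*Wisp2* stayed called in every setting run, and the 7 member genes that were not called were called in none of them. *Ankrd1* was the member whose call depended on the setting: 0 member genes were called lower with no background correction, an offset of 16, cyclic loess, a variance trend, the position adjustment, the middle left out or probes averaged per gene, and 0 to 1 with 1 array left out. Signs that turned, all without a call, were *Ctgf* without 1G11-mock replicate 3 (0.38, and -0.52 to 0.38 over the arrays left out), the dimmer *Wisp1* probe with the scanner-processed signal (0.59), the position adjustment (0.57) or without 1G11-mock replicate 3 (0.11, and -0.55 to 0.11 over the arrays left out), and *Amotl1* with 75th percentile scaling (-0.043). Over all probes 1040 were called higher and 589 lower. Called higher were 655 with no background correction, 647 with the position adjustment and 299 with the middle left out, and 482 to 1274 with 1 array left out. Called lower were 391 with an offset of 16, 9918 with the processed signal, 1082 with 75th percentile scaling and 1586 with the position adjustment, and 280 to 523 with 1 array left out. The 75th percentile scaling moved the median of all probes to -0.33 and the processed signal to -0.52. Of the pathway genes, 2 were called higher with an offset of 16, the processed signal, the middle left out or the mean of all probes, 1 with the position adjustment, and 1 to 5 with 1 array left out. Called lower were 2 with the processed signal or dim probes left out, 0 with an offset of 16, 75th percentile scaling or the position adjustment, and 0 to 1 with 1 array left out. With the replicate block, which pairs arrays by number, 1452 probes were called higher and 800 lower, and 3 pathway genes lower. The block changed the call of no member (*Ankrd1* adjusted p = 0.0266 in limma). Signal over background limits the 1G11-mock level of *Wisp2*, and 3 arrays per line limit how small a difference could be detected.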
